A study of Mus musculus with 17 samples.

Results

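The genes described here encode the glutathione, peroxidase and NRF2 defence system of the cell, measured by RNA sequencing in mouse bile duct. They were chosen by a rule on gene names, with earlier results of these data known. Members were the protein-coding genes named Gsta, Gstm, Gstp, Gstt, Gsto, Gstk, Gstz, Mgst, Gpx or Prdx with a number, and 14 further genes listed by name (Nqo1, Gclc, Gclm, Gsr, Gss, Txn1, Txnrd1, Srxn1, Slc7a11, Nfe2l2, Keap1, Sod1, Sod2 and Cat). This gave 52 members of 43346 genes in the table, of which 22032 were protein-coding. The series, a study of mouse extrahepatic cholangiocarcinoma, held 17 samples, all labelled bile duct. The labels give no genotype, strain, treatment, age or tumour status, so no conditions could be compared. In the count table the libraries carry 6 codes with a running number (R62848, R62850, R63289, R63496 and R63500 with 3 libraries each, R63494 with 2). The meaning of the codes was not stated in the labels or headers, and no column could be tied to 1 sample. The labels do not say that libraries came from separate animals, so p-values measure only the spread between these libraries, which may be technical.

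Glutathione is a small peptide that cells make from glutamate, cysteine and glycine. Glutathione S-transferases join it to electrophiles such as lipid aldehydes and drugs, and glutathione peroxidases use it to reduce peroxides. Peroxiredoxins reduce peroxides with electrons from thioredoxin, and superoxide dismutases and catalase act on superoxide and hydrogen peroxide. The transcription factor NRF2, encoded by Nfe2l2, drives many of these genes and is held down by KEAP1, which targets it for degradation. Duct epithelium meets bile acids and conjugated compounds excreted by the liver, which is the setting in which this system is usually studied in the biliary tree.

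Several of the peroxide-reducing enzymes carry selenocysteine, an amino acid encoded by a TGA codon that elsewhere means stop. The codon is shown because it divides the peroxidase genes that were abundant here from those that were not. In the GENCODE M21 transcripts (GRCm38, the sequence of mm10), an in-frame TGA was found in Gpx1, Gpx2, Gpx3, Gpx4 and Txnrd1, in each case at an annotated selenocysteine. Each line gives the coding strand with 15 bases on either side, less where the reading frame ends, and the codon in capitals.
Gpx1 (chr9:108339436-108339468, plus strand): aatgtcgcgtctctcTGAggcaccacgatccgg
Gpx2 (chr12:76795241-76795273, minus strand): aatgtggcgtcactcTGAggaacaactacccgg
Gpx3 (chr11:54907241-54907273, plus strand): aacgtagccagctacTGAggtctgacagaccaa
Gpx4 (chr10:80054722-80054754, plus strand): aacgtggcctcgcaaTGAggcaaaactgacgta
Txnrd1 (chr10:82896022-82896042, plus strand): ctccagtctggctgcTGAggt
The other peroxidases have a cysteine codon where their coding sequence aligns with the TGA of Gpx1.
Gpx5 (chr13:21291321-21291353, minus strand): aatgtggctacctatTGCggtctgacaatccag
Gpx6 (chr13:21313762-21313794, plus strand): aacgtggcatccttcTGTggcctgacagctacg
Gpx7 (chr4:108403415-108403447, minus strand): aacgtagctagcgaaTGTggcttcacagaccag
Gpx8 (chr13:113045646-113045678, minus strand): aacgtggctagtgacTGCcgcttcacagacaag
In Txnrd1 the TGA was codon 498 of 499, next to the end of the frame, and in Gpx1 it was codon 47 of 201.

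Library totals ran from 16400556 to 24152314 counts. All 12 markers of duct epithelium fixed for a check of the tissue were expressed, with a summed level between 6594 and 9281 CPM (reads scaled to a common library total) in every library. Markers of other cells moved with the codes, as given here and beside the results they touch. The 11 pancreatic acinar enzyme genes summed to 6020 to 136250 CPM in R62850 and to 40.6 to 159 CPM elsewhere. The 9 fibroblast and matrix genes summed to 12465 to 15579 CPM in R62848 and R63500, to 5630 to 5907 CPM in R62850, to 3194 to 3704 CPM in R63494 and to 5091 to 7758 CPM in R63289 and R63496. Xist, the RNA of the inactive X chromosome, was at 0.645 to 5.84 CPM in R62850 and R63494 and at 660 to 1476 CPM in the other codes. In bulk tissue, fewer cells of a type and less RNA per cell cannot be told apart.

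The members were abundant as a group. Together they took 0.928% to 1.39% of the counts of a library, with a median of 1.04%. Levels of different genes are compared here per length, as RPKM (CPM divided by gene length in kilobases). Of the 52 members, 48 had a median of at least 1 RPKM, beside 57.4% of all protein-coding genes. The 10 most abundant members held 71.3% of the summed RPKM of all members, by median over libraries. They were Gsta4, Gsto1, Gpx2, Prdx1, Gstp1, Gpx1, Sod1, Txn1, Gsta3 and Mgst1.

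**Figure D1:**
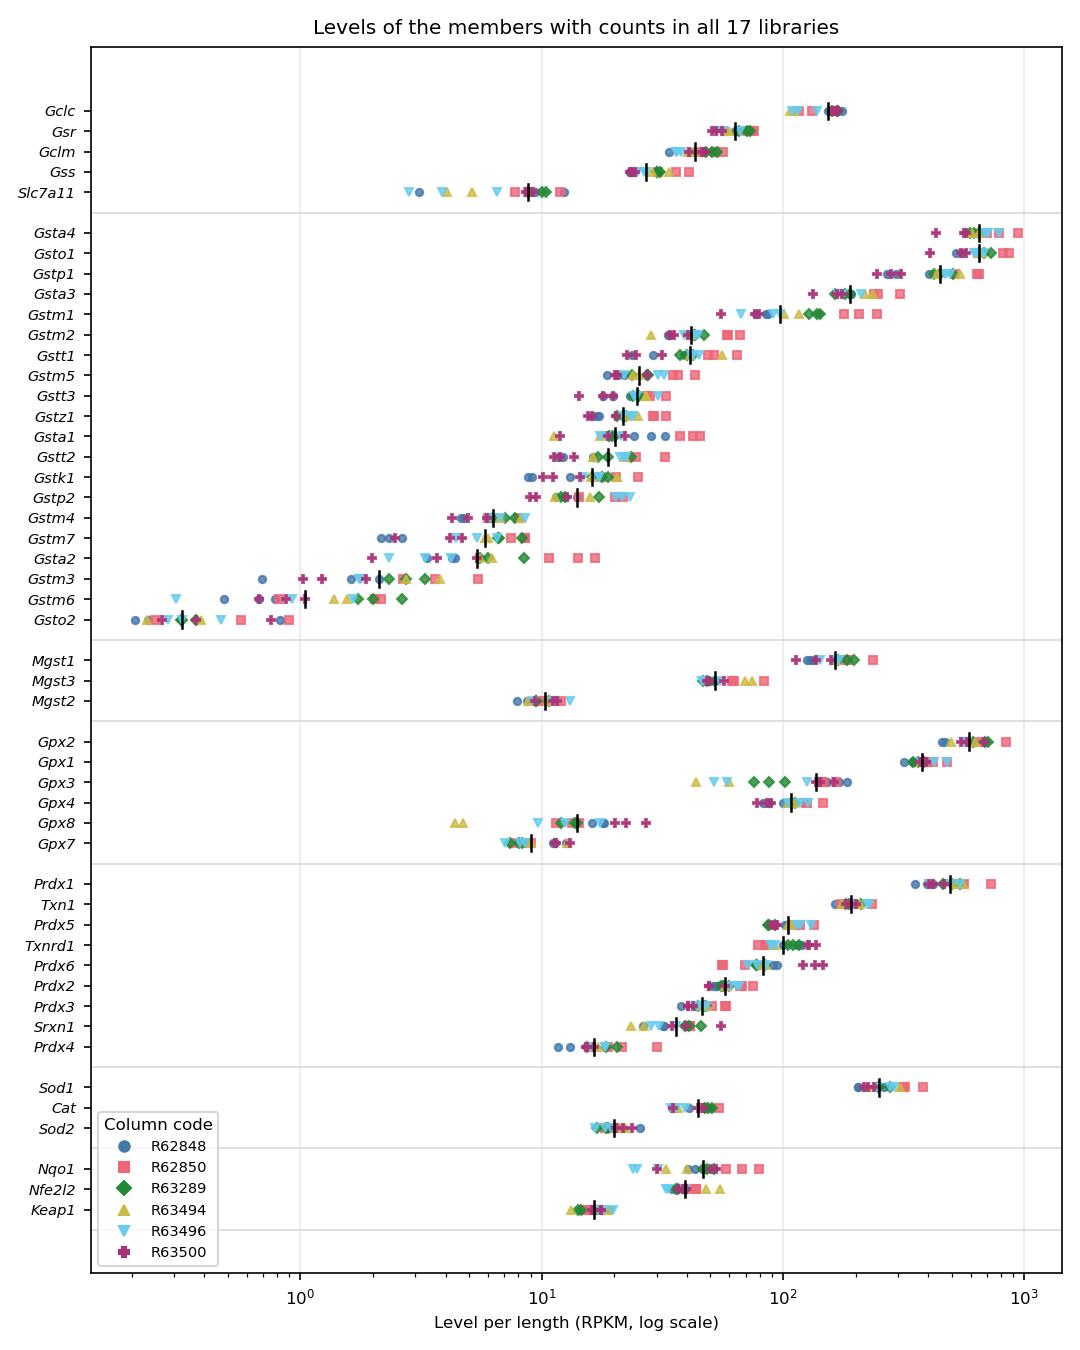
Level per length (RPKM, log scale) of each member with counts in all 17 libraries, by role; each symbol is 1 library, its shape and colour give the column code, and the black bar is the median. Gsta4, Gsto1 and Gpx2 have the highest medians, and Gsto2 lies below 1 RPKM.

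The glutathione S-transferases (GSTs) were the largest class, and a few isoforms made up most of each family. Gsta4, whose enzyme conjugates the lipid aldehyde 4-hydroxynonenal, lay between 429 and 940.1 RPKM with a median of 646 RPKM. It made up 74.5% of the summed Gsta RPKM (median, 70.3% to 78.8% over libraries), ahead of Gsta3 with 22.0%. That order rests on the gene lengths given, 957 bases for Gsta4 and 4344 for Gsta3. By counts Gsta3 led, with a median share of 56.1% against 41.8% for Gsta4. Gsto1, an omega-class enzyme that reduces rather than conjugates many of its substrates, also had a median of 646 RPKM. Its RPKM exceeded that of Gsta4 in 7 of 17 libraries, so the order of these genes was not fixed. Gsto2 was at a median of 0.323 RPKM. Gstp1, the pi-class enzyme common in epithelia and tumours, stood at 449 RPKM and gave 96.7% of its family. In the mu class Gstm1 held 57.8% (46.6% to 66.4%) and Gstm2 22.6%. Transcripts of some members share sequence with other genes, pseudogenes included. Of the 50-base stretches of Gsta1 transcripts 90.5% also occur in another gene, beside 54.3% for Gstp2, 49.8% for Gsta2, 34.7% for Gpx4, 33.7% for Gstp1, 28.8% for Gstm3, 21.04% for Sod2 and 18.9% for Gstm1. The levels of these genes, and ratios that use them, are uncertain to that extent.

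Among the glutathione peroxidases, the epithelial form Gpx2 led with a median of 589 RPKM, followed by the ubiquitous cytosolic Gpx1 with 377 RPKM. The ratio of Gpx2 to Gpx1 RPKM had a median of 1.58 and exceeded 1 in all 17 libraries (1.18 to 2.05). Gpx3, a secreted enzyme, was at 137 RPKM and Gpx4, which reduces lipid peroxides in membranes, at 108 RPKM, and Gpx3 was the higher in 9 of 17 libraries. The 4 peroxidase genes with the TGA codon printed above held 98.2% (96.8% to 98.7%) of the summed Gpx RPKM. The cysteine forms Gpx8 and Gpx7, which reside in the endoplasmic reticulum, were at 14.01 and 9.02 RPKM. Gpx5 had 3 counts in all over the 17 libraries and Gpx6 had 0.

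**Figure D2:**
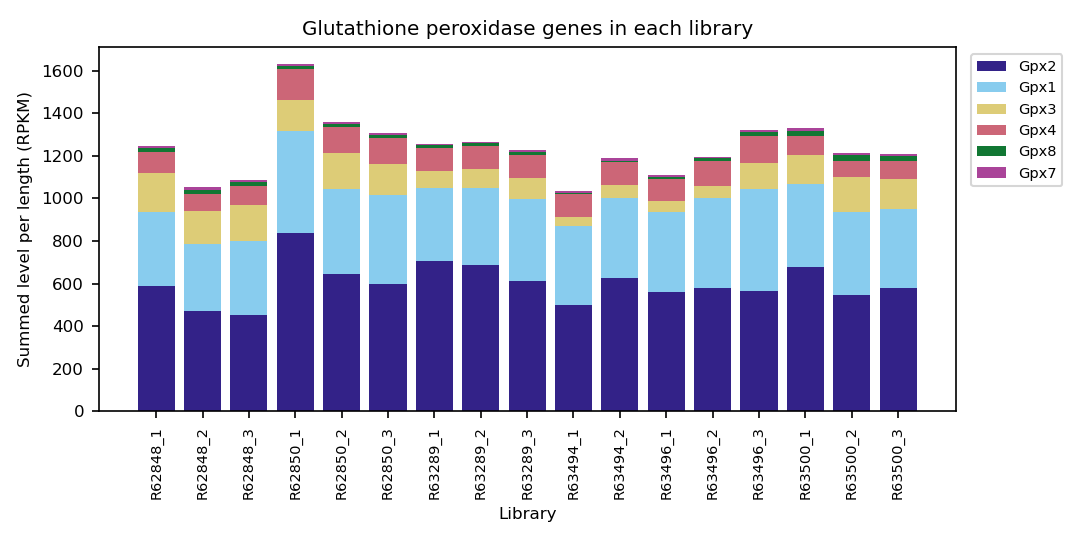
Stacked level per length (RPKM) of the 6 glutathione peroxidase genes tested, 1 bar per library in the order of the column codes. Gpx2 and Gpx1 form most of every bar, and the Gpx3 share runs from 4.20% to 15.7%.

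Peroxiredoxins were dominated by Prdx1, a cytosolic peroxidase, with a median of 491 RPKM and 62.1% of the family (53.8% to 67.0%). Prdx5 followed with 105 RPKM, but by counts Prdx6 came next, with a median share of 16.3% against 9.17% for Prdx5. Sod1, the cytosolic superoxide dismutase, had a median of 251 RPKM, and its ratio to the mitochondrial Sod2 was 13.5 (8.02 to 19.1). That ratio rests on the gene lengths given, 646 bases for Sod1 and 3824 for Sod2. Not scaled by length, the medians of Sod1 and Sod2 were 162 and 76.1 CPM. Catalase (Cat) was at 44.3 RPKM. In glutathione synthesis, the catalytic subunit Gclc stood at 153 RPKM and the modifier subunit Gclm at 43.2 RPKM, a ratio of 3.18 (2.52 to 4.05). Glutathione synthetase (Gss) was at 26.9 RPKM, and the cystine importer subunit Slc7a11 at 8.74 RPKM. Glutathione reductase (Gsr) was at 63.5 RPKM, below the thioredoxin reductase Txnrd1 in every library. Nfe2l2 was above Keap1 in every library, at a ratio of 2.45 (1.65 to 4.15).

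Next, the members were compared between the 6 column codes, which asks only whether libraries of a code resemble each other more than libraries of other codes. The test was edgeR's quasi-likelihood F test of equal means, with Benjamini-Hochberg adjustment over all 19412 genes tested and a threshold of 0.05. Of the 49 members tested, 43 passed, beside 42.2% of all genes and 47.6% of all protein-coding genes tested. The other members, Gstt4, Gpx5 and Gpx6, had too few counts to be tested. At a median of at least 10 CPM the count was 39 of 44 members, beside 52.7% of such genes. Without the 6 libraries of R62848 and R63500, the codes with high fibroblast markers, 25 members passed, beside 19.9% of all genes. Differences were not large in most cases. Between the highest and the lowest code the median member differed by 0.65 on the log2 scale, the median gene of all tested by 0.71 and the median protein-coding gene by 0.61. For 20 of 49 members the highest library was within 2-fold of the lowest, beside 41.9% of all genes and 50.2% of protein-coding genes. For each member named below, the difference is between its highest and its lowest code, and the p-value is that of the test over all 6 codes. The SE of a difference was computed from the pooled SD of log2 CPM within codes, not by edgeR. The highest and lowest codes were picked for each gene from its means, and the SE does not allow for that choice.

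**Figure D3:**
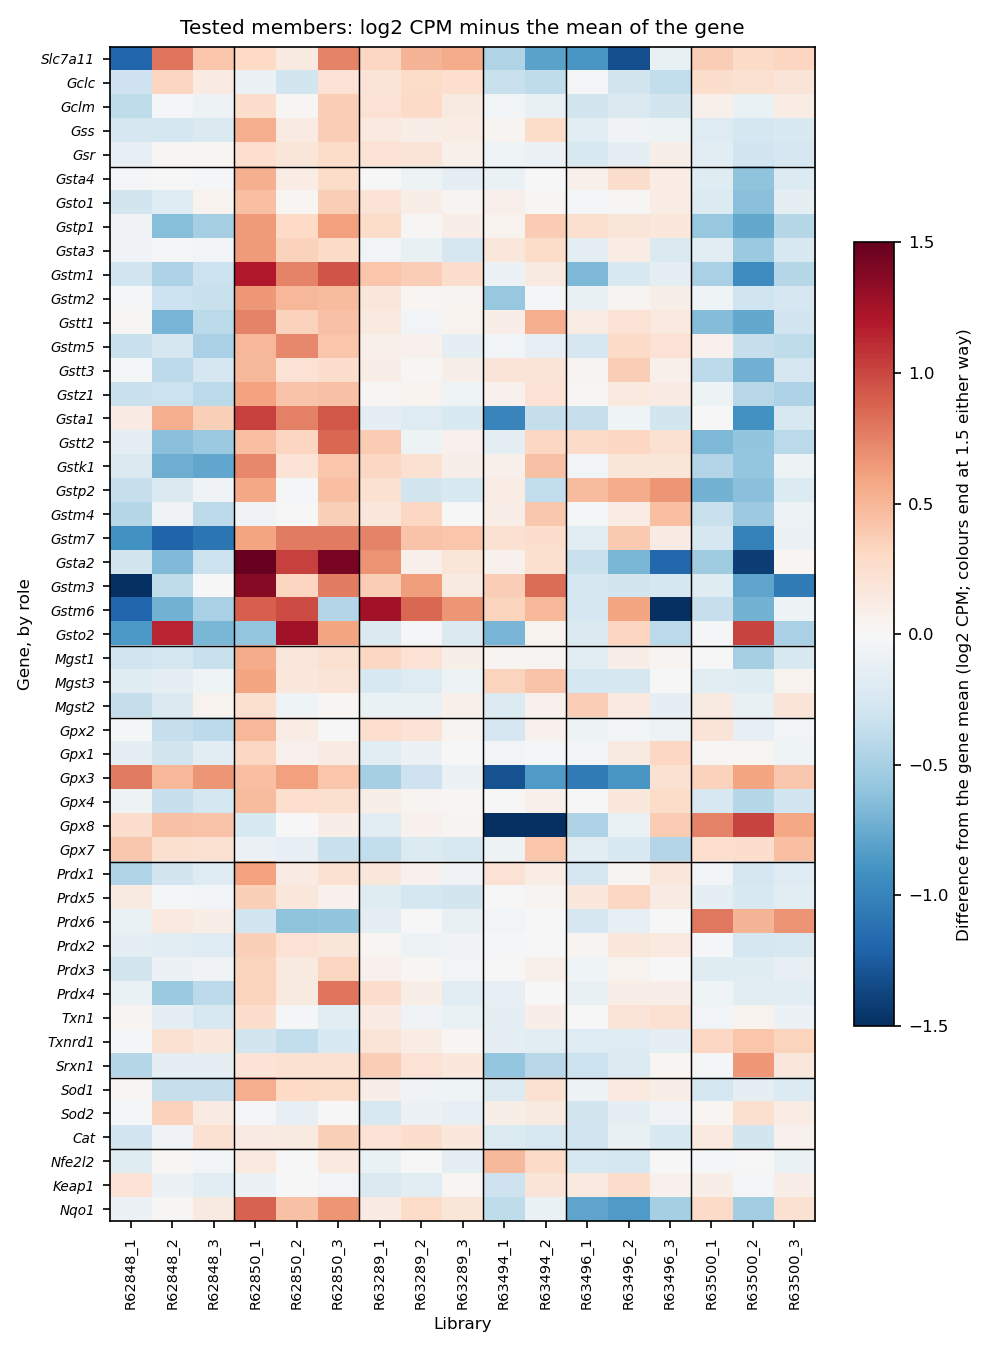
Level of the 49 tested members (rows) in the 17 libraries (columns, by code) as log2 CPM minus the mean of the gene; the colour scale ends at 1.5 either way. The R62850 libraries show the most genes above their mean, while Prdx6 and Txnrd1 are low there.

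R62850 had the highest mean of the codes for 30 of the 49 members, beside 18.5% of all genes, a count made after the values were seen. Most GSTs were among them. Gstm1 was at 341, 249 and 287 CPM in R62850 and at 107, 77.0 and 111 CPM in R63500, with the other codes at 93.0 to 199 CPM. No R62850 library overlapped any other. The difference between these codes was 1.58 ± 0.17 on the log2 scale (SE, edgeR adjusted p = 8.6e-07). Gsta1 differed by 1.57 ± 0.25 (adjusted p = 1.69e-05), Gstp1 by 1.11 ± 0.16 (adjusted p = 1.63e-05) and Gsta2, a low-level gene, by 2.07 ± 0.33 (adjusted p = 2.3e-05). Gsta4 and Gsto1, the most abundant members, moved less, by 0.63 ± 0.12 and 0.61 ± 0.14. Gstz1, an enzyme of tyrosine breakdown, was at 48.1 to 54.6 CPM in R62850 and at 25.9 to 41.6 CPM elsewhere. Summed over the 21 GST genes, the level was 3014 ± 388 RPKM in R62850 (SD, n = 3), 2380 ± 96.0 in R63496, 2356 ± 145 in R63494 (n = 2), 2331 ± 137 in R63289, 2017 ± 72.3 in R62848 and 1727 ± 256 in R63500. The middle 3 codes did not differ beyond their spread.

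Other markers moved with R62850. Beside its acinar sum, its hepatocyte markers summed to 507 to 878 CPM (other codes 169 to 664) and its gastric gland markers to 1033 to 1169 CPM (other codes 295 to 879). Most of the hepatocyte sum was 1 gene, Ttr, at 156 to 833 CPM over all libraries, while Alb was at 0.912 to 31.3 CPM. In R62850 the 7 heat shock genes summed to 3033 to 3535 CPM, beside 1208 to 2086 CPM in R62848, R63289 and R63496. They summed to 2426 to 4299.8 CPM in R63500 and to 5291 to 5680.0 CPM in R63494. Xist was also low in R62850, at 2.765 to 5.84 CPM, as in R63494 and in no other code. The part of these markers and of Xist in the high GST levels was not tested. With 1 library left out at a time, the count of members highest in R62850 ran from 26 (without R62850_1, beside 19.1% of all genes) to 34 (without R62850_2, beside 20.3%).

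A smaller set ran the other way. Prdx6, a peroxiredoxin that also repairs oxidised membrane lipids, was at 706, 582 and 651 CPM in R63500 and at 333, 267 and 271 CPM in R62850, with the other codes at 343 to 452 CPM. The R63500 libraries were above all others and the R62850 libraries below all others. This difference was 1.16 ± 0.10 (adjusted p = 6.47e-07). Txnrd1, whose enzyme keeps thioredoxin reduced, showed the same order, at 435, 467 and 439.9 CPM against 289, 270.3 and 298 CPM (0.65 ± 0.06, adjusted p = 2.19e-05). One code stood clear of all other libraries, above or below, for 16 of 49 members, beside 21.5% of all genes. It stood above for 15 members (12.6% of all genes) and below for 4 (11.1%).

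Among the NRF2 targets of the set, Nqo1, Gclm, Srxn1 and Gclc differed between codes, and their highest codes were often near ties. Nqo1, a quinone reductase, was at 123, 90.3 and 105 CPM in R62850 and at 38.6, 37.1 and 47.1 CPM in R63496 (1.37 ± 0.20, adjusted p = 0.000225). Gclm had near-equal means in R62850 and R63289 (283 and 281 CPM) and exceeded R63496 by 0.47 ± 0.11 (adjusted p = 0.00231). Srxn1, which restores over-oxidised peroxiredoxins, had its highest mean in R63500 and its lowest in R63494 (0.76 ± 0.17, adjusted p = 0.000887). The R63500 mean rested on 1 library (97.5, 156 and 112 CPM), and R62850 and R63289 lay at 111 to 129 CPM. Gclc was near equal in R63289 and R63500 (means of 566 and 562 CPM), and above R63494 by 0.60 ± 0.18 (adjusted p = 0.0102). The Nfe2l2 transcript itself peaked in R63494, at 209 and 182 CPM, where Srxn1 and Gclc were lowest and the heat shock sum was highest, whose part was not tested. All other libraries of Nfe2l2 lay at 124 to 165 CPM (0.55 ± 0.09 over R63496, adjusted p = 0.00139), and the call was lost with libraries scaled to Krt8, Krt18 and Krt19 (adjusted p = 0.116). NRF2 is regulated largely through its protein, which was not measured. Keap1 did not pass (adjusted p = 0.377), nor did Txn1 (adjusted p = 0.466). Slc7a11 did not pass (adjusted p = 0.151). Its libraries in R62848 were far apart, at 43.1, 172 and 131 CPM, and it passed without R62848_1 (adjusted p = 0.0102).

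**Figure D4:**
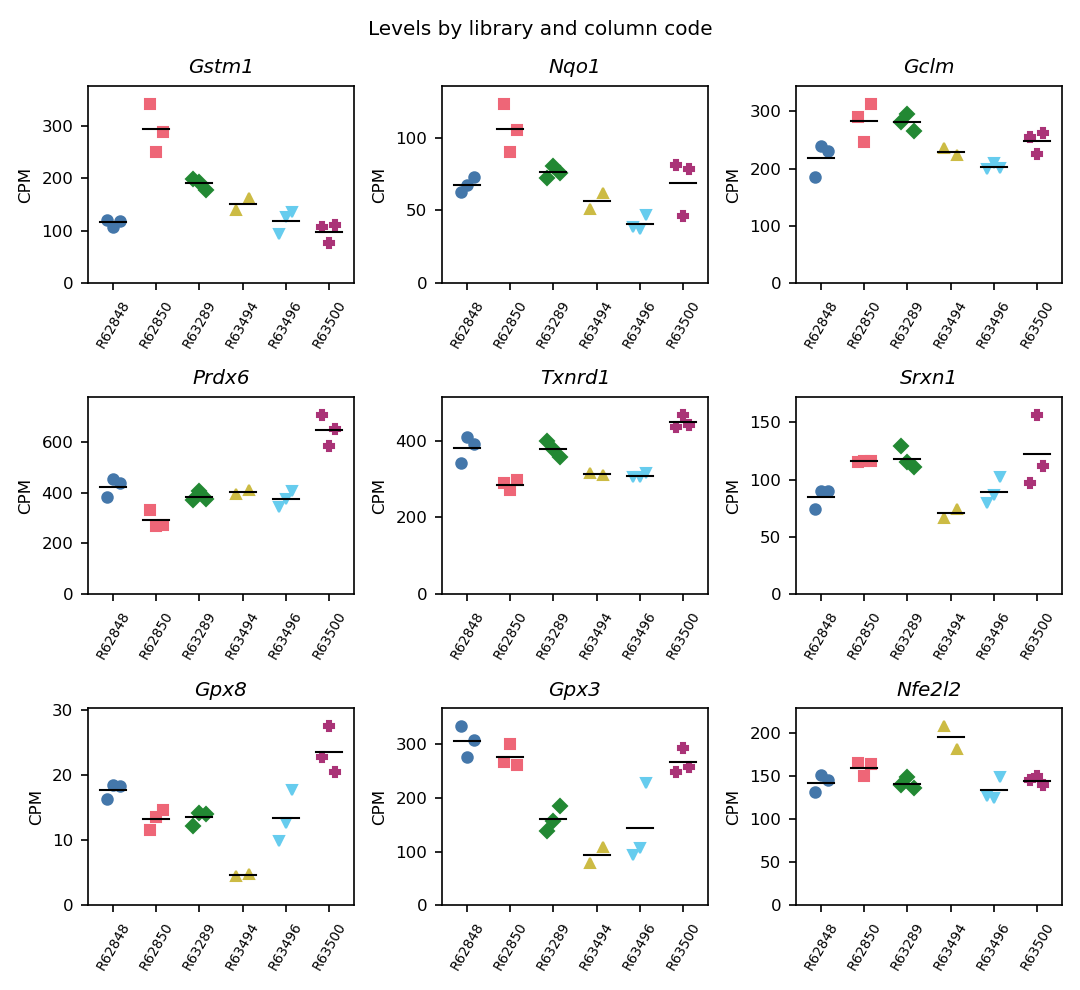
Level (CPM) of 9 members in each library by column code; points are libraries and black lines are code means. Gstm1 and Nqo1 are highest in R62850, Prdx6 and Txnrd1 in R63500, and Gpx8 and Gpx3 are lowest in R63494.

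Gpx8 and Gpx3 followed another order. Gpx8 was at 22.7, 27.5 and 20.4 CPM in R63500 and at 4.43 and 4.77 CPM in R63494 (2.32 ± 0.21, adjusted p = 1.92e-06), with no overlap of either code with any other library. Gpx3 was at 334, 276 and 309 CPM in R62848 and at 78.8 and 108 CPM in R63494 (1.72 ± 0.31, adjusted p = 0.00344). The fibroblast sum was highest in R62848 and R63500 and lowest in R63494. The endothelial markers also summed highest in R62848 and R63500, at 218 to 297 CPM (other codes 108 to 160). Macrophage markers summed lowest in R63494, at 633 to 808 CPM (other codes 941 to 1484), but neutrophil markers were lowest in R63500. The part of these markers in the Gpx8 and Gpx3 differences was not tested. Gpx3 was also at 262 to 300 CPM in R62850, where the fibroblast sum was 5630 to 5907 CPM. Gpx2, the most abundant peroxidase, passed narrowly (0.45 ± 0.14, adjusted p = 0.0451) and lost its call when any of 10 single libraries was left out.

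The remaining families moved less or at lower levels. Among the theta class, Gstt1 lay between 34.5 and 98.3 CPM and Gstt3 between 37.5 and 86.4 CPM, both highest in R62850 and lowest in R63500 (1.07 ± 0.19, adjusted p = 0.000505, and 0.78 ± 0.13, adjusted p = 0.000281). Gstm2 differed by 0.83 ± 0.15 between R62850 and R63494 (adjusted p = 0.000106), and Gstm7 by 1.75 ± 0.21 between R62850 and R62848 (adjusted p = 2.14e-05). Gstk1, a mitochondrial and peroxisomal form, ran from 8.19 to 23.2 CPM. The low-level Gstm3 and Gstm6 had medians of 2.77 and 2.07 CPM, and Gstm6 lost its call without any of 4 single libraries. Of the microsomal transferases, which sit in membranes, Mgst1 (227 to 473 CPM) was highest in R62850 and Mgst2 did not pass (adjusted p = 0.394). Mgst3 (50.5 to 91.2 CPM) was highest in R63494, with R62850 close to it (means of 78.9 and 75.8 CPM). Gstp2 was highest in R63496 and lowest in R63500 (1.07 ± 0.20, adjusted p = 0.00176). Gstm4 (adjusted p = 0.0573) and Gsto2 (adjusted p = 0.871) did not pass either.

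All 6 peroxiredoxins passed. Prdx1 was at 2208, 1582 and 1705 CPM in R62850 and at 1068, 1205 and 1271 CPM in R62848 (0.62 ± 0.14, adjusted p = 0.00378), and 1 R62850 library overlapped other codes. Prdx5, found in mitochondria, peroxisomes and cytosol, had near-equal means in R62850 and R63496 (258.04 and 257.73 CPM). It was lowest in R63289, which R63496 exceeded by 0.44 ± 0.07 (adjusted p = 0.000644). Sod1 was at 245, 207 and 203 CPM in R62850, above the 132 to 197 CPM of every other library (0.60 ± 0.13 over R62848, adjusted p = 0.00235). Sod2 and Cat moved little, by 0.30 ± 0.09 and 0.43 ± 0.15, and Sod2 lost its call without any of 3 single libraries. Gss differed by 0.59 ± 0.09 between R62850 and R62848 (adjusted p = 7.79e-05) and Gsr by 0.47 ± 0.08 between R62850 and R63500 (adjusted p = 0.00135). Gpx1 stayed between 458 and 689 CPM (0.36 ± 0.09, adjusted p = 0.0253, and 0.233 with the keratin scaling).

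The promoters of the NRF2 set were searched for TGACNNNGC, the core of the antioxidant response element to which NRF2 binds with small MAF proteins. In RefSeq windows (GRCm38.p6) from 250 bases before to 50 after the start, on both strands, the motif was present in 3781 of 27025 genes and in 10 of the 47 members with a window. The matches of a GST, a synthesis, a peroxiredoxin and a reductase gene are shown with the motif, or its reverse complement, in capitals.
Gsta3 (chr1:21240448-21240488, plus strand): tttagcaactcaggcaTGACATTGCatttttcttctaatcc
Gclm (chr3:122245407-122245447, plus strand): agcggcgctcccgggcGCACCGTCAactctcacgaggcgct
Prdx1 (chr4:116685450-116685490, plus strand): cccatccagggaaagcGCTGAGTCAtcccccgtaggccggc
Txnrd1 (chr10:82859098-82859138, plus strand): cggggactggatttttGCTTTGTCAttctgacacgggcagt
Of these genes, Gsta3, Prdx1 and, narrowly, Gclm had their highest mean in R62850 and Txnrd1 its lowest. The other matches were in Gstm5, Gstm7, Mgst1 and Sod1, also highest in R62850, and in Nfe2l2 and Srxn1, highest in R63494 and R63500. Of all 49 members tested, matched or not, R62850 was highest for 30, beside 18.5% of all genes. A link to the motif was not tested. A match describes the letters only, and binding was not measured.

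Of 54 further genes of the NRF2, glutathione and thioredoxin pathways, 35 passed the same test (64.8%), beside 42.2% of all genes and 47.6% of protein-coding genes. At a median of at least 10 CPM, 31 of 49 genes of this list passed, beside 52.7% of such genes. Without R62848 and R63500 the count was 21 of 54, beside 19.9% of all genes. Txnip, an inhibitor of thioredoxin, was at 884 to 913 CPM in R63494 and at 433 to 450.1 CPM in R63500, above and below all other libraries (1.03 ± 0.07, adjusted p = 3.96e-08). Aldh3a1, an aldehyde dehydrogenase, differed by 2.32 ± 0.25 between R62850 and R63496 (adjusted p = 8.37e-07). It was at 39.2 to 56.9 CPM in R62850 and at 35.3 to 56.2 CPM in R62848, so these codes overlapped. R62850 was above all other libraries for Osgin1, at 85.0 to 106 CPM (adjusted p = 2.49e-06), and for the biliverdin reductase Blvrb, at 79.8 to 93.4 CPM (adjusted p = 4.34e-06). The extracellular dismutase Sod3 was highest in R62848 and lowest in R63494 (1.36 ± 0.16, adjusted p = 1.14e-06), as Gpx3 was. Ferritin heavy chain Fth1, the most abundant gene of this list at 1851 RPKM, did not pass (adjusted p = 0.540), but did with the keratin scaling (adjusted p = 0.0412). Ftl1, at 1305 RPKM, passed (0.48 ± 0.11, adjusted p = 0.0304) but lost its call without any of 4 single libraries. Selenop, at 224 RPKM, and Taldo1, at 203 RPKM, also passed (adjusted p = 0.00806 and 0.00173).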

How the data were processed

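The deposited table holds whole-number counts per gene for 17 libraries, gene lengths and a second set of per-library values. Per the submitters' processing notes STAR 2.6.1c, featureCounts, edgeR 3.40.2 and mm10 were used; neither annotation release nor strand setting is stated there. The 17 columns of length-scaled values were not used. From the authors' counts, CPM was computed on TMM-scaled library sizes in edgeR 4.0.16 (R 4.3.3) and RPKM from the table's lengths. Genes were kept by filterByExpr, and the test had 11 residual degrees of freedom. Log2 CPM values were computed with a prior count of 2. On simulated data the test recovered 59 of 100 genes changed 2-fold in 1 code and 27 of 100 changed 1.5-fold, with 3 false calls. Only these planted genes differed there, while 42.2% of genes were called in the real data. The adjusted threshold was therefore not alike, and these rates do not describe the reported fit. Depth was 16400556 to 24152314 counts per library. Libraries were grouped by column code alone. The members and lists were chosen with earlier results of these data known. Named were the top 2 of each family by RPKM, the 14 genes listed singly, the 8 members with the smallest adjusted p and the 8 with the largest SD, and 5 plus 5 wider genes by p and by RPKM; other members with values (Gpx4, Gpx5, Gpx6, Gpx7, Gstm4 and Mgst2 among them) were added after their values were seen. Alternatives were DESeq2 1.42.0, limma 3.58.1, other scalings and filters, and leaving out libraries or codes.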

Additional observations from a re-analysis of the deposited data

How the results depend on the processing

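Of 49 members, 43 passed the test between codes. Beside each count stands the share of all genes called in the same fit (42.2% for the reported one). The count was 44 with DESeq2's size factors in edgeR (42.3%), 41 with libraries scaled to Krt8, Krt18 and Krt19 (42.8%), 44 with DESeq2 (49.1%), 44 with limma (43.8%), 44 of 51 with no filter (29.1%) and 38 without R62850 (36.2%). It was 25 without R62848 and R63500 (19.9%), a fit with fewer libraries, and 40 to 44 when single libraries were left out (37.2% to 44.1%). For the 54 further pathway genes the counts were 35, 21 without those codes, and 30 to 36 with 1 library left out. The count of members highest in R62850, and its alternatives, were chosen after seeing the data. As a share of counts, not RPKM, Gsta4 made up 41.8% of its family, behind Gsta3 with 56.1%, and Mgst1 77.0%, since counts grow with transcript length. Keratin scaling moved the median gene by -0.32 to 0.40 on the log2 scale between libraries; under it Txn1 changed sign (a difference of -0.0695), and Gpx1 (adjusted p = 0.233), Nfe2l2 (adjusted p = 0.116) and Selenop (adjusted p = 0.0513) no longer passed, while Fth1 did (adjusted p = 0.0412). The cause was not tested. Leaving out 1 library also removed the call of Gpx2 (adjusted p up to 0.133), Gpx1 (0.0778), Gstm6 (0.0794), Sod2 (0.0665) and Gclc (0.0513) in at least 1 case. The same held for Ftl1 among the further pathway genes (adjusted p up to 0.0958). Of 1111 alternative values of single genes, 1080 kept direction and side of the threshold. No paired analysis was possible because the labels give 1 group and the columns carry no replicate number of a sample. The alternative with deposited length-scaled values was not run. Members under 1 RPKM are limited by depth.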
